A study of Mus musculus with 8 samples.

Results

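The collagens and matrix genes of fibroblasts described here are 44 genes for fibrillar collagens, network and other collagens, matrix glycoproteins, small and large proteoglycans, and elastic fibre or cross-linking proteins. Every probe set that the array's annotation paired with one of these genes alone was taken, which gave 79 probe sets for 42 of the 44 genes, out of 20380 single-gene probe sets for 12393 genes in the whole table. Fbn1 had no such probe set, and the single Loxl2 probe set also named another gene. A filter on dim probe sets left 73 probe sets for 40 genes, with Col15a1 and Mfap5 untested, and each gene was represented by its tested probe set of highest mean log2 signal.

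The cells were mouse embryonic fibroblasts, taken at embryonic day 11 and cultured through crisis, so they grow as established lines. One line was wild type (wt) and the other carried a knockout of Med23, labelled Med23-/- (KO), a subunit of the Mediator complex that links transcription factors to RNA polymerase II. All cells were held for 16 h in medium with 0.5% fetal bovine serum (starved), and the stimulated groups then received serum to 20% for 30 min. The study asked how the immediate response to serum differs without MED23. Each of the 4 groups had 2 arrays, sets 1 and 2. Nothing in the labels says that the sets were separate cultures, so the p-values measure the spread between these samples, which may be technical. Each genotype was 1 line, so the absence of MED23 and any other difference between the lines cannot be told apart.

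Fibrillar collagens assemble from 3 chains into rope-like fibrils that give tissue its tensile strength, types I, III and V being made by fibroblasts and type XI mainly by cartilage. Network collagens form sheets and beaded filaments, above all in basement membranes, where laminins and nidogens join them. Glycoproteins such as fibronectin, fibulins, tenascin and thrombospondins connect cells to the fibrils, while small leucine-rich proteoglycans such as decorin bind the fibrils and govern their width. Fibroblasts are the main source of most of these proteins in connective tissue, and collagen messages are long-lived.

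Signals were brought by the authors to one mean per array, which lay between 2500.6 and 2500.8, and the median signal of an array lay between 765.6 and 924.4. Med23, the targeted gene, read 4901 and 5410 in starved and 3595 and 3577 in stimulated wild-type cells, and 28.0 and 133 in starved and 34.6 and 36.9 in stimulated knockout cells. The sources used here do not say whether the Med23 probes lie in the deleted part. Of 8 fibroblast markers, 7 were tested, 6 of them were higher in starved knockout cells and 0 were lower, and Thy1 lay under every array's 40th percentile. Their summed signal was 64690 to 69070 in starved wild-type and 109700 to 137400 in starved knockout cells. Some markers of other cells were dim and others were not. Under every array's 40th percentile lay 5 of 6 endothelial genes (Cdh5, Emcn, Pecam1, Tek and Tie1) and 4 of 6 skeletal muscle genes (Chrna1, Myf5, Myod1 and Myog). So did macrophage Adgre1, Ptprc and Tyrobp, epithelial Cdh1, Epcam and Krt18, bone Dmp1 and Ibsp, cartilage Comp and Matn1, and smooth muscle Myh11. At or above it on all arrays were 4 of 6 smooth muscle genes (Acta2, Cnn1, Smtn and Tagln), cartilage Col2a1 and macrophage Csf1r. In starved cells the summed signal was 816 to 940 in wild-type and 964 to 1334 in knockout cells for the endothelial list, and 715 to 1130 and 1137 to 1211 for the skeletal muscle list. The macrophage list summed to 2232 to 2351 and 2526 to 2870, the epithelial list to 1906 to 1933 and 1315 to 1515, and the bone list to 861 to 882 and 1057 to 1078. The cartilage list summed to 15940 to 17150 in starved wild-type and 9841 to 10870 in starved knockout cells, and the smooth muscle list to 80000 to 95080 and 112600 to 130100. Within these sums single markers went both ways. Of 4 tested cartilage genes 2 were higher and 2 lower in starved knockout cells: Sox9 read 687 and 404 in wild-type and 6344 and 5938 in knockout cells, and Col2a1 read 15124 and 13874 in wild-type and 2598 and 1849 in knockout cells. Of 5 tested smooth muscle genes 2 were higher and 1 lower, Cnn1, with 3945 and 4601 in wild-type and 1855 and 1396 in knockout cells. All 8 sums differed between the starved lines without overlap, and their part in the matrix results was not tested. In such bulk RNA, more cells of a kind and more RNA per cell cannot be told apart.

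The wild-type sets differed for a pair of the matrix genes by their representing probe sets. The second wild-type array exceeded the first by over 2-fold in both serum states for 2 of the 40 genes, Col1a2 and Nid1, and for 0.167% of all tested probe sets. It exceeded the first by 3.89 on the log2 scale for Col1a2 and by 3.88 for Nid1 in starved cells, and by 3.64 and 3.80 in stimulated cells. On the other tested probe set of Nid1, 1448469_at, set 2 exceeded set 1 by 1.73 in starved cells but not in stimulated cells (-0.18). On the Col8a1 probe set 1418441_at, which does not represent the gene, it did so in both states, by 2.36 and 1.02. No representing probe set showed this split between the knockout sets, where 0.107% of all tested probe sets did. Results on Col1a2 and Nid1 are therefore given with and without single arrays.

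Most matrix genes differed between the lines whether or not serum had been given. In starved cells 25 of the 40 tested genes were higher and 6 were lower in knockout than in wild-type cells, at an adjusted p under 0.05 by limma with Benjamini-Hochberg adjustment over all 14947 tested probe sets. That is 77.5% of the genes, where 47.6% of all tested probe sets passed the same test, 22.8% higher and 24.8% lower. In stimulated cells 23 were higher and 10 were lower, or 82.5%, against 50.2% of all tested probe sets, 22.7% higher and 27.5% lower. With 1 probe set tested per gene over the whole array, 4253 of 8453 were called in starved and 4427 of 8453 in stimulated cells. The matrix genes were chosen with earlier results of these data known, so these shares do not test them as a set. The median log2 difference over the 40 genes was 0.52 in starved cells, against -0.013 over all tested probe sets, and 0.55 in stimulated cells, against -0.069. With quantile normalization, which forces all arrays to one distribution, the split became 21 higher and 11 lower in starved cells and 20 higher and 14 lower in stimulated cells. Bgn, Col1a1, Col5a2, Col6a1, Fn1, Lox, Sparc and Thbs1 lay at or above the 98th percentile on all 8 arrays, and 7 of these 8 changed call or direction under quantile normalization in at least 1 serum state, Lox being the exception. The highest signal of an array was 62459 to 95220. Whether signals as bright as those of these 8 genes were in proportion to RNA was not tested, so small differences in them are uncertain. Median centring moved the median of all tested probe sets from -0.069 to 0.094 in stimulated cells and left 25 higher and 7 lower.

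The genes above wild type in one serum state were largely those above it in the other, on separate arrays of the same lines. Of the 25 higher in starved and 23 higher in stimulated cells, 22 were in both lists, and all 6 that were lower in starved cells were among the 10 lower in stimulated cells. Much the same held over the whole array. Of 3411 probe sets called higher in starved cells, 2419 were also called higher in stimulated cells. Of 3700 called lower, 2732 were also called lower. These are 16.2% and 18.3% of all tested probe sets. By their representing probe sets Col6a2, Fn1, Sparc and Thbs1 passed the test in neither state, while another probe set of Fn1 passed it in both and another of Sparc in starved cells. By the study's own measure of change, a difference over 2-fold, taken here with no overlap between the groups' arrays, 17 genes were higher and 4 lower in starved cells, and 16 were higher and 4 lower in stimulated cells. Over all tested probe sets this held for 8.8% higher and 10.5% lower in starved cells, and for 8.55% and 12.0% in stimulated cells. Lack of overlap alone, at any size of difference, was common. It held for 36 of the 40 genes in each state, and for 73.3% of all tested probe sets in starved and 78.3% in stimulated cells. In starved cells 19 genes were called higher, and Fbln2 and Thbs2 lower, under each alternative processing that tested them, with 16 of the 19 over 2-fold throughout. In stimulated cells the same was true of 18 higher genes, 15 of them over 2-fold throughout, and of 6 lower genes, Col18a1, Col5a3, Fbln2, Lamc1, Thbs2 and Tnc. Of all tested probe sets, 13.8% were called higher and 15.6% lower under every alternative that tested them in starved cells, and 13.5% and 17.0% in stimulated cells. Without the variance trend the starved calls of Col1a1, Col5a1, Col5a2, Col18a1, Lox and Tnc and the stimulated calls of Col4a1, Col4a2, Col5a2, Col6a1 and Dcn were lost.

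**Figure D1:**
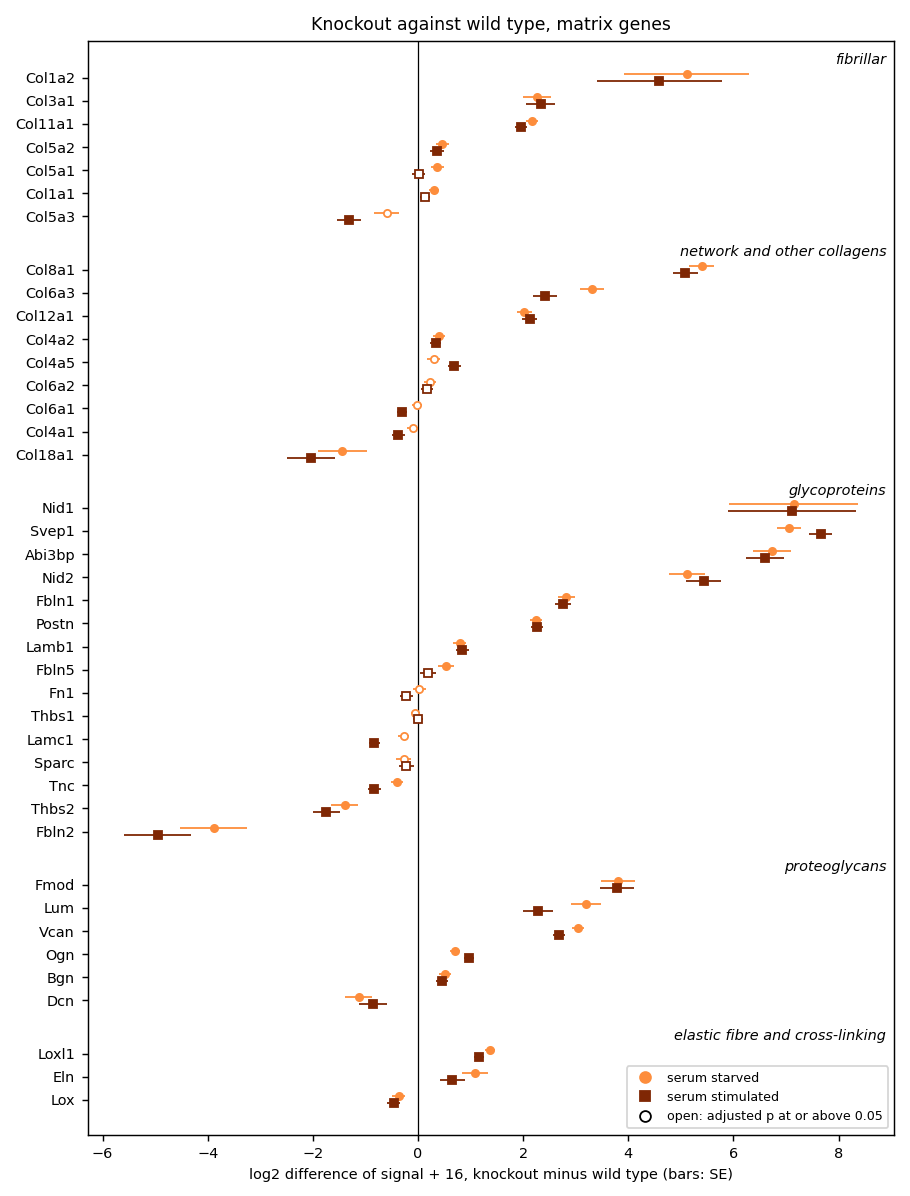
Log2 difference of signal plus 16 between knockout and wild-type cells (horizontal axis) for the 40 tested matrix genes, sorted within each class by the starved value. Circles are starved and squares stimulated cells, bars are the SE of the fit over 8 arrays, and filled symbols passed the test. The differences run from -4.95 for Fbln2 to 7.66 for Svep1, both in stimulated cells.

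How the genes reached the filter bears on these counts. The filter kept probe sets whose signal was no lower than the 40th percentile of its array on 2 or more of the 8 arrays, and 30 of the 40 genes reached it on all 8. Among those 30, 19 were higher, 3 lower and 8 not past the test in starved cells, and 17, 6 and 7 in stimulated cells. Of all tested probe sets, 22.8% were higher and 24.8% lower in starved cells, and 22.7% and 27.5% in stimulated cells. Abi3bp, Nid1, Nid2, Svep1, Fmod and Lum reached it through knockout arrays only, and Fbln2 through wild-type arrays only, so these 7 had to differ, and their counts support nothing by themselves. The same 7 are among the genes counted above as over 2-fold without overlap and as called under each alternative, in both serum states. Their presence in those counts supports nothing either. The low side of such a gene lay under the 40th percentile of its arrays, and the size of its fold depends on the constant added before the logarithm. With an added 1 and an added constant 16 times the usual 16, the starved difference was 7.69 and 5.24 for Nid1, 7.19 and 5.84 for Svep1, 6.85 and 5.56 for Abi3bp, and -3.95 and -3.15 for Fbln2.

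Promoters are shown for the 4 genes with the largest excess in starved knockout cells that the RefSeq promoter table held, and for Fbln2, the gene furthest below wild type. Each runs 5′ to 3′ on the gene's own strand, from 250 bases before to 50 bases after the start of the gene in the mouse build GRCm38.p6. Capitals mark the TATA box TATAAA, the CCAAT box and the GC box GGGCGG wherever either strand held them, and a match on the other strand is capitalised as it reads here. Overlapping matches were kept. Nid1 lies on the plus strand at chr13:13437352-13437651, Svep1 on the minus strand at chr4:58206547-58206846, Col8a1 on the minus strand at chr16:57754688-57754987, Col1a2 on the plus strand at chr6:4505368-4505667 and Fbln2 on the plus strand at chr6:91212514-91212813.
Nid1: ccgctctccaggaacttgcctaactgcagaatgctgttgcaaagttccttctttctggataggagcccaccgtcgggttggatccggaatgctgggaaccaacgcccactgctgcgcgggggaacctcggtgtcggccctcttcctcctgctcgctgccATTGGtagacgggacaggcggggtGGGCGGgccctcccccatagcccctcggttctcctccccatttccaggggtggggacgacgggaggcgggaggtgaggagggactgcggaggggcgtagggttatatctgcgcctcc
Svep1: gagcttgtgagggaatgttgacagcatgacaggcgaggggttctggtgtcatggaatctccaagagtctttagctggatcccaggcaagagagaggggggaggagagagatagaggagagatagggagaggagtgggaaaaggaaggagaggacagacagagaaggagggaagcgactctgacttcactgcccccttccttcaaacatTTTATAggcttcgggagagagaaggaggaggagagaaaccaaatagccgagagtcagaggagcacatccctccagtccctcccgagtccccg
Col8a1: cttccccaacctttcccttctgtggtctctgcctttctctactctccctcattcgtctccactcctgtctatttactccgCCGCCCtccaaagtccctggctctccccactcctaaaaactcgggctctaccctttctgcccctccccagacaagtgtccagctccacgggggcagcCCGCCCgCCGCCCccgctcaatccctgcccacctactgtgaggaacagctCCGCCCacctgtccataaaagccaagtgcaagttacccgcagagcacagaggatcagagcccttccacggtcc
Col1a2: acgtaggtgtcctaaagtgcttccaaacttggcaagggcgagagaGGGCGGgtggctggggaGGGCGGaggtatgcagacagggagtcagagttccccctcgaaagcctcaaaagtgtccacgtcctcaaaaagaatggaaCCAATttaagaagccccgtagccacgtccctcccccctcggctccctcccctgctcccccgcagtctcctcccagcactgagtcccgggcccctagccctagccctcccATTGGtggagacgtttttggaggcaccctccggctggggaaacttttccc
Fbln2: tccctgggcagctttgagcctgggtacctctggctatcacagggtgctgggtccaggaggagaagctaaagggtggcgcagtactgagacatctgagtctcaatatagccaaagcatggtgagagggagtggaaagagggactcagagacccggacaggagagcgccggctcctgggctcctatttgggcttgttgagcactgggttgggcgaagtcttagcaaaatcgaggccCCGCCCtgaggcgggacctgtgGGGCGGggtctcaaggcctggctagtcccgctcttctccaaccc
The 5 sequences had no motif in common. The table held 35 promoters for 29 of the 44 genes and 32851 promoters in all. The GC box was in 21 of the 35 (60%) and in 35.7% of all promoters, the CCAAT box in 14 (40%) and in 37.4%, and the TATA box in 7 (20%) and in 13.6%. The AP-1 motif TGACTCA was in 1 (2.86%) and in 5.2% of all. The CArG box, bound by serum response factor, was in 0 of the 35 and in 1.63% of all. These are matches of letters within 300 bases and say nothing of what binds there.

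Of the 7 fibrillar collagen genes, 6 were higher in starved knockout cells by their representing probe sets and 0 were lower. That is 85.7%, against 47.6% of all tested probe sets called in either direction. The median log2 difference was 0.47. Col1a1 and Col1a2 encode the chains that make up type I collagen, the main protein of skin, tendon and bone, and their values were unlike. The Col1a1 signal was 43588 and 48972 in starved and 45521 and 47082 in stimulated wild-type cells, and 54334 and 59615 in starved and 49665 and 52134 in stimulated knockout cells. Knockout arrays were above wild-type arrays in both serum states by a small margin, with a log2 difference of 0.30 ± 0.094, adjusted p = 0.0239, in starved and 0.14 ± 0.094, adjusted p = 0.254, in stimulated cells. With quantile normalization the sign turned, to -0.12, adjusted p = 0.119, in starved and -0.17, adjusted p = 0.0316, in stimulated cells, so that stimulated Col1a1 was called lower. With median centring it was instead called higher in stimulated cells, at 0.30, adjusted p = 0.0323. The starved call was also lost with the compared arrays fitted alone (adjusted p = 0.103), without the filter (0.0709) and without the variance trend (0.0883). Col1a1 lost its starved call without knockout starved set 2 (0.23) or wild-type starved set 1 (0.22). The other Col1a1 probe set, 1455494_at, gave -0.022 in starved and 0.293 in stimulated cells, neither past the test. The Col1a2 signal was 581 and 8871 in starved and 743 and 9443 in stimulated wild-type cells, and 69881 and 91077 in starved and 62376 and 66212 in stimulated knockout cells. Every knockout array was above every wild-type array, but wild-type set 1 was far below wild-type set 2 in both serum states. The log2 difference was 5.11 ± 1.19, adjusted p = 0.00554, in starved cells and 4.58 ± 1.19, adjusted p = 0.00942, in stimulated cells. Without the first starved wild-type array it was 3.17, and without the second 7.06. Without the first stimulated wild-type array it was 2.76 and no longer passed the test (adjusted p = 0.082). The gene's other probe set, 1423110_at, read 176 and 3656 in starved wild-type cells and 36742 and 39042 in starved knockout cells, a log2 difference of 5.50.

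Col3a1, the single chain of type III collagen, which forms thin fibrils with type I, read 8532 and 12893 in starved and 6578 and 13106 in stimulated wild-type cells, and 49735 and 51193 in starved and 46468 and 47260.1 in stimulated knockout cells. Wild-type and knockout arrays were well apart, by 2.27 ± 0.27, adjusted p = 9.57e-05, in starved and 2.33 ± 0.27, adjusted p = 7.86e-05, in stimulated cells on the log2 scale. The other Col3a1 probe set gave 4.13 and 3.92. Col11a1, a chain of the type XI collagen that nucleates fibrils, was also higher, by 2.17 ± 0.12, adjusted p = 4.64e-07, in starved and 1.96 ± 0.12, adjusted p = 9.66e-07, in stimulated cells. The type V chains, which start type I fibrils and limit their width, were mixed. Col5a2 was higher by 0.46 ± 0.13, adjusted p = 0.0145, in starved and by 0.35 ± 0.13, adjusted p = 0.0448, in stimulated cells. With quantile normalization these were 0.105 and 0.0849, no longer called. The other Col5a2 probe set, 1450625_at, gave 1.46 and 1.52, both called higher. Col5a2 lost its starved call without knockout starved set 2 (0.27) or wild-type starved set 1 (0.35). Col5a2 lost its stimulated call without any 1 of the 4 stimulated arrays (0.34 to 0.37). Its starved call was also lost with the compared arrays fitted alone (adjusted p = 0.0545), and its stimulated call without the filter (0.0925). Col5a1 read 19531 and 22672 in starved and 19637 and 21663 in stimulated wild-type cells, and 24493 and 29948 in starved and 20490.1 and 21230.3 in stimulated knockout cells, and its excess of 0.36 ± 0.12, adjusted p = 0.0326, in starved cells was 0.016 ± 0.12, adjusted p = 0.924, in stimulated cells. Col5a1 lost its starved call without knockout stimulated set 1 (0.36), knockout stimulated set 2 (0.36), knockout starved set 2 (0.22) or wild-type starved set 1 (0.26). That call was also lost with quantile normalization (0.184, adjusted p = 0.141), with the compared arrays fitted alone (0.0848) and without the filter (0.0604). Col5a3 differed by -0.59 ± 0.23, adjusted p = 0.0607, in starved cells and was lower by the test in stimulated cells, with -1.31 ± 0.23, adjusted p = 0.00115. Col5a3 gained a starved call without wild-type starved set 2 (-0.88).

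**Figure D2:**
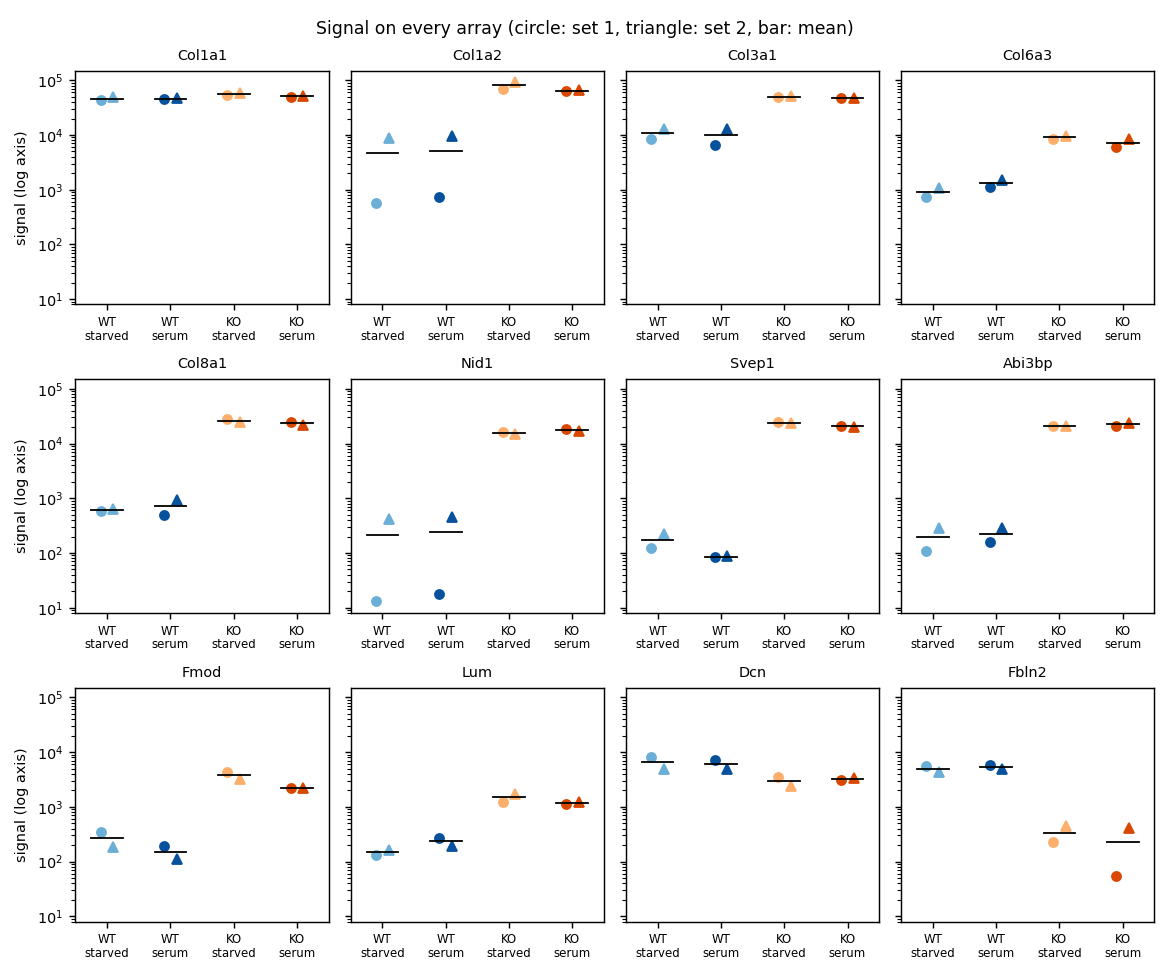
Signal per array (vertical axis, log scale, the authors' scaled units) of 12 matrix genes in wild-type (WT) and knockout (KO) cells, starved or given serum, with the arithmetic mean of each group as a bar. Circles are set 1 and triangles set 2. Col1a2 and Nid1 have wild-type set 1 far under set 2, and every knockout array of Col1a2, Col8a1, Nid1, Svep1 and Abi3bp is above every wild-type array.

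Among network and other collagens, 4 of 9 tested genes were higher and 1 lower in starved cells, and 5 were higher and 3 lower in stimulated cells, with medians of 0.30 and 0.33. That is 55.6% called in starved cells, near the 47.6% of all tested probe sets, and 88.9% in stimulated cells, against 50.2%. Col8a1, a short-chain collagen of blood vessel walls and the membrane under the corneal endothelium, read 578 and 628 in starved and 489 and 936 in stimulated wild-type cells, and 27574 and 24666 in starved and 24888 and 22246 in stimulated knockout cells. No wild-type array came near a knockout array, and the log2 difference of 5.40 ± 0.24, adjusted p = 1.43e-07, in starved cells is 42.2-fold. In stimulated cells it was 5.08 ± 0.24, adjusted p = 2.2e-07. Col6a3, a chain of the beaded filaments of type VI collagen, read 721 and 1098 in starved and 1115 and 1534 in stimulated wild-type cells, and 8601 and 9407 in starved and 5964 and 8316 in stimulated knockout cells. All knockout arrays were above all wild-type arrays, by 3.31 ± 0.23, adjusted p = 2.46e-06, in starved and 2.42 ± 0.23, adjusted p = 2.15e-05, in stimulated cells. Col12a1, which coats type I fibrils, read 1882 and 2349 in starved and 1575 and 1655 in stimulated wild-type cells, and 7959.9 and 9221 in starved and 6999 and 7141 in stimulated knockout cells. Its log2 difference was 2.02 ± 0.14, adjusted p = 2.47e-06, in starved and 2.12 ± 0.14, adjusted p = 1.91e-06, in stimulated cells.

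Chains that assemble into one molecule gave different values. Col6a1 and Col6a2 combine with Col6a3 in type VI collagen. Col6a1 read 33704 and 33103 in starved and 33809 and 33148 in stimulated wild-type cells, and 30647 and 35335 in starved and 27356 and 26898 in stimulated knockout cells. The starved groups overlapped, with a log2 difference of -0.022 ± 0.095, adjusted p = 0.871, while the stimulated groups did not and differed by -0.30 ± 0.095, adjusted p = 0.0229. Col6a1 lost its stimulated call without any 1 of the 4 stimulated arrays (-0.32 to -0.29). That call was also lost without the filter (adjusted p = 0.0523). The contrast between the serum states moved with the scaling: with quantile normalization the starved difference was -0.32 and called lower, adjusted p = 0.00852, and with median centring the stimulated one was -0.14 and not called, adjusted p = 0.272. Col6a2 differed by 0.23 ± 0.12 and 0.17 ± 0.12, neither past the test, and was called higher in stimulated cells with median centring (0.34, adjusted p = 0.0418). Col4a1 and Col4a2 form the common type IV collagen of basement membranes. Col4a1 differed by -0.10 ± 0.12, adjusted p = 0.524, in starved and -0.37 ± 0.12, adjusted p = 0.0242, in stimulated cells, and Col4a2 by 0.40 ± 0.11, adjusted p = 0.0132, and 0.33 ± 0.11, adjusted p = 0.0284. Col4a1 lost its stimulated call without knockout stimulated set 2 (-0.21), wild-type stimulated set 1 (-0.43) or wild-type stimulated set 2 (-0.32). That call was also lost with median centring (-0.211, adjusted p = 0.226). Col4a2 lost its starved call without knockout starved set 1 (0.26) or wild-type starved set 1 (0.38). Col4a2 lost its stimulated call without any 1 of the 4 stimulated arrays (0.33 each time). That call was also lost with quantile normalization (0.265, adjusted p = 0.0579). Col4a5, a chain of a less widespread type IV network, read 14068 and 14467 in starved and 11343 and 12342 in stimulated wild-type cells, and 16545 and 18560.4 in starved and 21053 and 17348 in stimulated knockout cells. Its difference was 0.30 ± 0.12, adjusted p = 0.0635, in starved cells and 0.69 ± 0.12, adjusted p = 0.000899, in stimulated cells. Col4a5 gained a starved call without knockout starved set 1 (0.38). The other Col4a5 probe set, 1425475_at, passed in the opposite state: it was higher by 0.64 ± 0.14, adjusted p = 0.00382, in starved cells and differed by 0.21 ± 0.14, adjusted p = 0.246, in stimulated cells. Col18a1, the collagen whose cleavage releases endostatin, read 1474 and 1284 in starved and 1418 and 1512 in stimulated wild-type cells, and 252 and 967 in starved and 312 and 379.8 in stimulated knockout cells. The starved groups did not overlap, but knockout set 2 was nearer to wild type than set 1, and the difference was -1.44 ± 0.46, adjusted p = 0.0263. Col18a1 lost its starved call without knockout starved set 1 (-0.50), wild-type starved set 1 (-1.34) or wild-type starved set 2 (-1.54). That call was also lost with the compared arrays fitted alone (adjusted p = 0.0545) and without the filter (0.0537). In stimulated cells the difference was -2.04 ± 0.46, adjusted p = 0.00443.

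Of the 15 tested glycoprotein genes, 8 were higher and 3 lower in starved cells and 7 and 4 in stimulated cells, with medians of 0.53 and 0.20. In each state 73.3% were called, against 47.6% and 50.2% of all tested probe sets. Abi3bp, Nid1, Nid2, Svep1 and Fbln2 reached the filter through 1 line only and so had to differ. Among the other 10 genes 4 were higher and 2 lower in starved cells and 3 and 3 in stimulated cells, with medians of -0.014 and -0.11. For 10 genes these counts are near the shares of all tested probe sets. The nidogens tie laminin to type IV collagen. Nid1 read 13 and 411 in starved and 18.2 and 459 in stimulated wild-type cells, and 16562 and 14951 in starved and 18198 and 17015 in stimulated knockout cells. Its knockout arrays agreed closely while its wild-type arrays did not, and the difference was 7.14 ± 1.22, adjusted p = 0.000875, in starved and 7.11 ± 1.22, adjusted p = 0.000875, in stimulated cells. Leaving out 1 array at a time moved the starved value between 5.20 and 9.08. Nid2 read 169.6 and 399 in starved and 124 and 218 in stimulated wild-type cells, and 9065 and 10188 in starved and 7889 and 7677 in stimulated knockout cells. Both nidogens were thus far higher in knockout cells, Nid2 by 5.12 ± 0.34, adjusted p = 1.76e-06, in starved and 5.43 ± 0.34, adjusted p = 1.26e-06, in stimulated cells.

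Svep1, a large adhesion protein with sushi and EGF repeats, read 122 and 223 in starved and 84.3 and 87 in stimulated wild-type cells, and 24343 and 23986 in starved and 21095 and 19956 in stimulated knockout cells. Its wild-type signals were all under the arrays' 40th percentile, and the fitted log2 differences were 7.06 ± 0.22, adjusted p = 2.15e-08, in starved and 7.66 ± 0.22, adjusted p = 1.11e-08, in stimulated cells. Abi3bp, a matrix protein that binds cells and collagen, read 111 and 289 in starved and 157 and 291 in stimulated wild-type cells, and 20845 and 20707 in starved and 21018 and 23555 in stimulated knockout cells. Its wild-type signals also lay under that percentile, and the differences were 6.72 ± 0.36, adjusted p = 4.45e-07, and 6.59 ± 0.36, adjusted p = 5.31e-07. Postn, periostin, which supports collagen cross-linking, was higher by 2.24 ± 0.12, adjusted p = 4.42e-07, in starved and 2.26 ± 0.12, adjusted p = 4.34e-07, in stimulated cells.

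The fibulins, calcium-binding proteins of elastic fibres and basement membranes, went in opposite directions. Fbln1 was higher by 2.82 ± 0.16, adjusted p = 5.64e-07, in starved and 2.76 ± 0.16, adjusted p = 6.7e-07, in stimulated cells. Fbln2 read 5574 and 4248 in starved and 5921 and 4855 in stimulated wild-type cells, and 225 and 437 in starved and 55.3 and 408 in stimulated knockout cells. All wild-type arrays were above all knockout arrays, and the difference was -3.89 ± 0.64, adjusted p = 0.000691, in starved and -4.95 ± 0.64, adjusted p = 0.000145, in stimulated cells. Fbln5, which is needed to assemble elastic fibres, read 7610.3 and 6682 in starved and 6995 and 5689 in stimulated wild-type cells, and 9532 and 11193 in starved and 8004 and 6519 in stimulated knockout cells. It was higher by 0.53 ± 0.15, adjusted p = 0.0152, in starved cells and differed by 0.20 ± 0.15, adjusted p = 0.31, in stimulated cells. Fbln5 lost its starved call without knockout starved set 2 (0.42) or wild-type starved set 2 (0.44).

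The thrombospondins and tenascin are matrix proteins that loosen cell attachment. Thbs2 read 1606 and 1308 in starved and 1500.2 and 1543 in stimulated wild-type cells, and 407 and 718 in starved and 412 and 473 in stimulated knockout cells. It was lower in knockout cells with no overlap, at -1.40 ± 0.26, adjusted p = 0.00145, in starved and -1.75 ± 0.26, adjusted p = 0.000347, in stimulated cells. The other Thbs2 probe set, 1450663_at, gave -0.24 ± 0.26, adjusted p = 0.473, and -0.77 ± 0.26, adjusted p = 0.0297. Thbs1 read 53821 and 57505 in starved and 54443 and 53716 in stimulated wild-type cells, and 51292 and 56124 in starved and 53081 and 54986 in stimulated knockout cells. The groups overlapped in both serum states, and the 95% interval of the knockout difference was -0.246 to 0.141 in starved and -0.195 to 0.192 in stimulated cells. With quantile normalization the differences were -0.51, adjusted p = 0.000191, and -0.27, adjusted p = 0.008, both called lower and outside these intervals. Tnc read 22004 and 22573 in starved and 23109 and 26657 in stimulated wild-type cells, and 15395 and 18415 in starved and 14648 and 13302 in stimulated knockout cells. It was lower, at -0.40 ± 0.12, adjusted p = 0.0179, in starved and -0.83 ± 0.12, adjusted p = 0.000289, in stimulated cells. Tnc lost its starved call without knockout starved set 1 (-0.28), wild-type starved set 1 (-0.42) or wild-type starved set 2 (-0.39).

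Sparc, a collagen-binding protein that helps fibrils form, read 43062 and 47363 in starved and 43701 and 48057 in stimulated wild-type cells, and 43895 and 31769.9 in starved and 41415 and 37146 in stimulated knockout cells. The starved groups overlapped, and the differences were -0.27 ± 0.14, adjusted p = 0.141, and -0.22 ± 0.14, adjusted p = 0.215. With quantile normalization they were -0.61 and -0.53 and were called lower. Sparc gained a starved call without knockout starved set 1 (-0.51). The other Sparc probe set was lower in starved knockout cells, at -0.27 ± 0.094, adjusted p = 0.0396, and differed by -0.066 ± 0.094, adjusted p = 0.586, in stimulated cells. The laminin chains, parts of the basement membrane trimers, had opposite signs. Lamb1 was higher by 0.80 ± 0.12, adjusted p = 0.000507, in starved and 0.84 ± 0.12, adjusted p = 0.000341, in stimulated cells. Lamc1 read 12418 and 13242 in starved and 14549 and 15354 in stimulated wild-type cells, and 11045 and 10259.6 in starved and 8772 and 7983 in stimulated knockout cells. It differed by -0.27 ± 0.10, adjusted p = 0.0576, in starved cells and was lower, at -0.84 ± 0.10, adjusted p = 0.000125, in stimulated cells.

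All 6 proteoglycan genes passed the test in both serum states, 5 higher and 1 lower, with medians of 1.87 in starved and 1.62 in stimulated cells. Of all tested probe sets, 47.6% passed it in starved and 50.2% in stimulated cells. Fmod and Lum reached the filter through knockout arrays only and so had to differ, and the other 4, Bgn, Dcn, Ogn and Vcan, had medians of 0.60 and 0.71. With the 60th percentile filter the class medians were 0.697 and 0.965. Fmod, fibromodulin, a leucine-rich proteoglycan of tendon, read 345 and 186 in starved and 193 and 109.9 in stimulated wild-type cells, and 4367 and 3231 in starved and 2246 and 2196 in stimulated knockout cells. Knockout arrays were above wild-type arrays in both states, by 3.80 ± 0.32, adjusted p = 8.75e-06, and 3.79 ± 0.32, adjusted p = 9.07e-06. The 6 tested probe sets of Fmod were all called higher, but by 3.60 to 6.84 in starved and 3.28 to 6.62 in stimulated cells, so the size is not settled. Lum, lumican, a relative of Fmod known for its part in corneal transparency, read 129.8 and 164 in starved and 273 and 191 in stimulated wild-type cells, and 1235 and 1731 in starved and 1109.9 and 1241 in stimulated knockout cells. It was higher by 3.19 ± 0.28, adjusted p = 1.1e-05, and 2.28 ± 0.28, adjusted p = 0.000107. Vcan, versican, a large proteoglycan that binds hyaluronan, read 1899 and 1745 in starved and 2013 and 1998 in stimulated wild-type cells, and 14449 and 15940.5 in starved and 13579.6 and 12368 in stimulated knockout cells. The groups were well apart, with 3.05 ± 0.12, adjusted p = 6.87e-08, and 2.68 ± 0.12, adjusted p = 1.47e-07.

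Ogn, osteoglycin, read 22087 and 24716 in starved and 19947 and 19728 in stimulated wild-type cells, and 37624 and 38136 in starved and 40112 and 37401 in stimulated knockout cells. It was higher by 0.70 ± 0.094, adjusted p = 0.000205, in starved and 0.96 ± 0.094, adjusted p = 2.34e-05, in stimulated cells. Bgn, biglycan, differed by 0.51 ± 0.12, adjusted p = 0.00545, and 0.45 ± 0.12, adjusted p = 0.0102, and by 0.10 and 0.16, no longer called, with quantile normalization. Bgn lost its stimulated call without knockout stimulated set 2 (0.39) or wild-type stimulated set 2 (0.38). Dcn, decorin, which binds type I collagen and limits fibril width, read 8105 and 4941 in starved and 7169 and 4807 in stimulated wild-type cells, and 3499.7 and 2365 in starved and 3134 and 3344 in stimulated knockout cells. Every knockout array was below every wild-type array, at -1.13 ± 0.26, adjusted p = 0.00548, in starved and -0.86 ± 0.26, adjusted p = 0.0212, in stimulated cells. Dcn lost its starved call without wild-type starved set 1 (-0.78). Dcn lost its stimulated call without knockout stimulated set 1 (-0.81), knockout stimulated set 2 (-0.90) or wild-type stimulated set 1 (-0.57). Dcn and Lum lie next to each other on chromosome 10 in the RefSeq gene order and stood on opposite sides of wild type. Col3a1 and Col5a2, neighbours on chromosome 1, were both higher, by 2.27 and 0.46 in starved cells.

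Of the elastic fibre and cross-linking genes, 3 were tested. Loxl1, a lysyl oxidase-like enzyme that cross-links elastin, read 14263 and 12849.6 in starved and 12808 and 12197 in stimulated wild-type cells, and 33802 and 36114 in starved and 28213 and 27587 in stimulated knockout cells. It was higher in knockout cells with no overlap, by 1.37 ± 0.097, adjusted p = 2.72e-06, and 1.16 ± 0.097, adjusted p = 8.66e-06. Eln, elastin itself, was higher by 1.08 ± 0.24, adjusted p = 0.00419, in starved and 0.65 ± 0.24, adjusted p = 0.0452, in stimulated cells. Eln lost its stimulated call without knockout stimulated set 2 (0.41), wild-type stimulated set 1 (0.71), wild-type stimulated set 2 (0.59), wild-type starved set 1 (0.65) or wild-type starved set 2 (0.65). That call was also lost without the filter (adjusted p = 0.0828). Lox, lysyl oxidase, the main cross-linker of collagen, read 47273 and 54316 in starved and 51685 and 55155 in stimulated wild-type cells, and 35089 and 43744 in starved and 38292 and 39052 in stimulated knockout cells. It was lower, at -0.37 ± 0.12, adjusted p = 0.0252, and -0.47 ± 0.12, adjusted p = 0.00811. Lox lost its starved call without knockout starved set 1 (-0.21) or wild-type starved set 2 (-0.27). That call was also lost with the compared arrays fitted alone (adjusted p = 0.0854) and without the filter (0.0635). Lox lost its stimulated call without knockout stimulated set 1 (-0.45) or wild-type stimulated set 2 (-0.42). Median centring also removed the stimulated call (-0.302, adjusted p = 0.061).

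The genes that modify, secrete and trim collagen did not follow one direction. Of 29 such genes 20 were tested, and in starved cells 6 were higher and 6 lower in knockout cells, with a median log2 difference of 0.0022. The 60% called are near the 47.6% of all tested probe sets. Crtap, part of the prolyl 3-hydroxylase complex, was higher by 0.93 ± 0.11, adjusted p = 9.85e-05, and Loxl3, a further lysyl oxidase-like enzyme, by 1.40 ± 0.16, adjusted p = 5.84e-05. Tgm2, a transglutaminase that cross-links matrix proteins, was lower, at -1.88 ± 0.12, adjusted p = 1.44e-06, and Loxl4 at -2.60 ± 0.25, adjusted p = 2.36e-05. The others that were higher were Mia3, Sec23a, P4ha1 and Pcolce, and the others that were lower were Pcolce2, Tll1, Plod2 and Plod1. In stimulated cells 5 were higher and 9 lower, or 70%, against 50.2% of all tested probe sets, with a median of -0.175. Over 2-fold without overlap, 2 were higher and 6 lower in starved cells, and 1 and 6 in stimulated cells. Over all tested probe sets this held for 8.8% higher and 10.5% lower in starved cells, and for 8.55% and 12.0% in stimulated cells. The starved differences ran from -4.37 to 1.81.

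Few matrix genes were called changed after 30 min of serum, and in wild-type cells few probe sets of the whole array were. By their representing probe sets, 0 of the 40 genes passed the test by limma in wild-type cells, against 4.14% of all tested probe sets, and 6 had an unadjusted p under 0.05. A count of 0 in 40 genes lies near so low a share. In knockout cells 3 fell, or 7.5%, and 0 rose, against 13.8% of all tested probe sets lower and 23.1% called in either direction, and 7 genes had an unadjusted p under 0.05. Unadjusted p-values were not counted over all tested probe sets, so the 6 and the 7 have no share beside them. No gene's representing probe set changed by over 2-fold without overlap in either line, against 3.03% of all tested probe sets in wild-type and 6.96% in knockout cells. The Fn1 probe set 1437218_at, which does not represent the gene, did so in knockout cells, with a 5.69-fold rise. The median log2 change over the 40 genes was 0.0031 in wild-type cells, against -0.046 over all tested probe sets, and -0.24 in knockout cells, against -0.13.

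The 3 genes that fell in knockout cells were Fbln5, with -0.52 ± 0.15, adjusted p = 0.0349, Loxl1, with -0.32 ± 0.097, adjusted p = 0.0376, and Lamc1, with -0.35 ± 0.10, adjusted p = 0.0386. Their changes in wild-type cells were -0.18 ± 0.15, -0.12 ± 0.097 and 0.22 ± 0.10. The starved and stimulated knockout arrays did not overlap for any of the 3, nor did they for 62.5% of all tested probe sets. Fbln5 lost its serum call without knockout stimulated set 1 (-0.66), knockout stimulated set 2 (-0.37) or knockout starved set 2 (-0.40). Loxl1 lost its serum call without knockout stimulated set 1 (-0.34), knockout stimulated set 2 (-0.31), knockout starved set 2 (-0.28), wild-type stimulated set 1 (-0.32) or wild-type stimulated set 2 (-0.32). Lamc1 lost its serum call without knockout stimulated set 1 (-0.41), knockout stimulated set 2 (-0.28), knockout starved set 1 (-0.29), knockout starved set 2 (-0.40), wild-type stimulated set 1 (-0.35) or wild-type stimulated set 2 (-0.35). The count was 0 with median centring, which moved the median of all tested probe sets in knockout cells from -0.13 to 0.028. Nearest to the threshold in wild-type cells were Svep1, with -0.84 ± 0.22, adjusted p = 0.0704, and Col12a1, with -0.38 ± 0.14, adjusted p = 0.189. Svep1 gained a serum call without wild-type starved set 1 (-1.23). It was also called with quantile normalization (-0.975, adjusted p = 0.0373). But its wild-type signals all lay under the arrays' 40th percentile, where values are noisy, and it reached the filter through knockout arrays only. Its wild-type change lay between -0.975 and -0.317 under the alternatives other than leaving out 1 array. In knockout cells Col5a1, with -0.38 ± 0.12, adjusted p = 0.0504, Col6a1, with -0.28 ± 0.095, adjusted p = 0.06, and Fmod, with -0.75 ± 0.32, adjusted p = 0.119, came next. Col5a1 was called lower under 10 of the 20 alternatives, among them quantile normalization (adjusted p = 0.0175), the set block (0.0214) and without knockout starved set 1 (-0.52, 0.0209). Fmod was called lower with the compared arrays fitted alone (0.0186), the larger added constant (0.0251) and the set block (0.047), and Col6a1 without knockout starved set 1 (-0.38, 0.0226) and without letter-suffixed probe sets (0.0497).

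The response to serum was not shown to differ with genotype for any of the 40 genes by their representing probe sets. By limma 0 passed the test of the interaction, against 2.69% of all tested probe sets, and 5 had an unadjusted p under 0.05. For 40 genes 0 lies near that share, and no share over all probe sets was counted for the 5. The smallest p belonged to Lamc1, whose response differed by -0.57 ± 0.15, adjusted p = 0.0763, between knockout and wild-type cells, knockout minus wild type. Col6a3 followed with -0.90 ± 0.33, adjusted p = 0.18, and Tnc with -0.43 ± 0.17, adjusted p = 0.21. For Col1a1 the 95% interval of the interaction was -0.461 to 0.132, and for Thbs1 -0.223 to 0.325. The other Col1a1 probe set had an interaction of 0.315, outside that Col1a1 interval and not past the test. For Col1a2 the interval was -4.29 to 3.23, in a fit that averages over the wild-type sets. Within set 1 the wild-type signal went from 581 to 743 with serum and within set 2 from 8871 to 9443, and on 1423110_at it went from 176 to 162 and from 3656 to 3966.

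**Figure D3:**
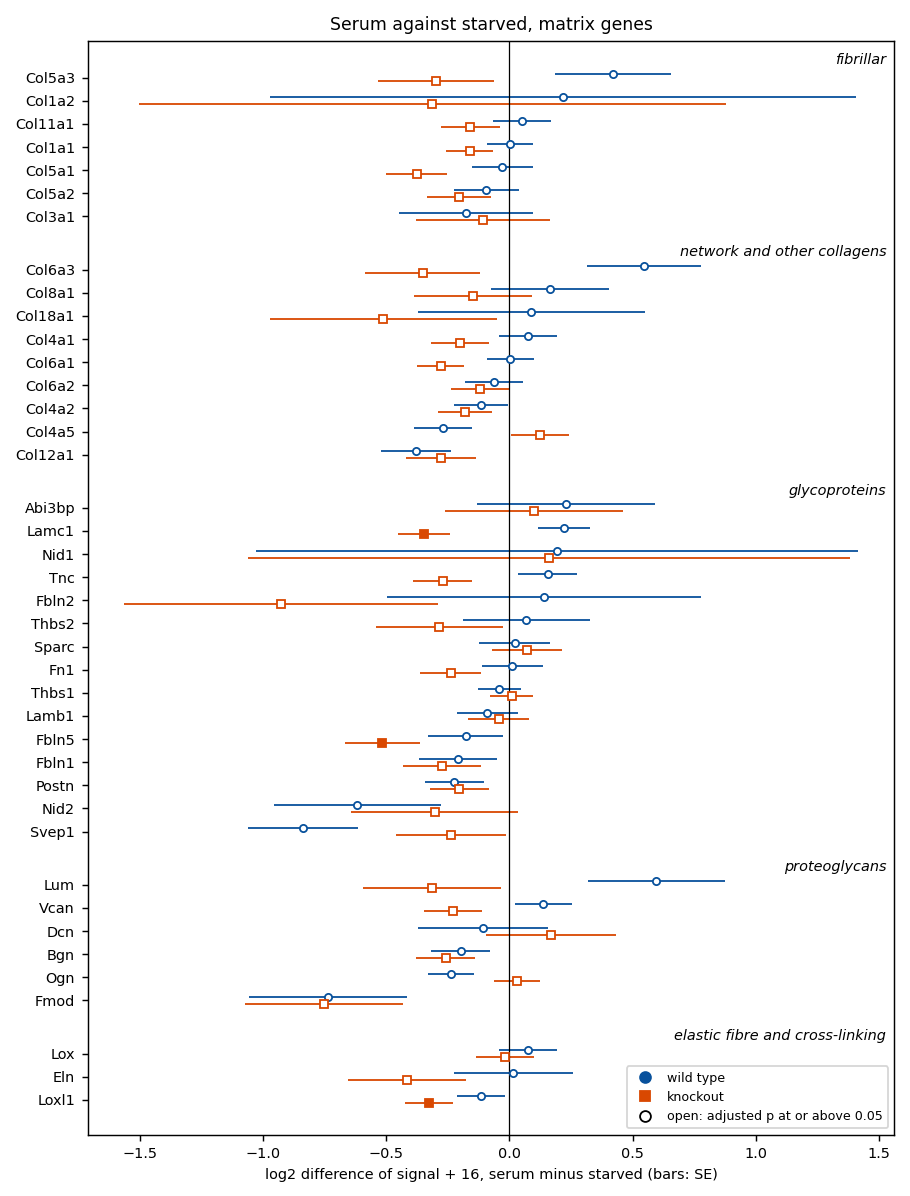
Log2 change of signal plus 16 from starved to stimulated cells (horizontal axis) for the 40 tested matrix genes, in wild-type (circles) and knockout (squares) cells, with the SE of the fit over 8 arrays. Filled symbols passed the test: Fbln5, Lamc1 and Loxl1, all in knockout cells. The bars of Col1a2 and Nid1, the genes whose wild-type sets differ, are the longest.

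Fibronectin, the adhesion glycoprotein that organises the matrix around cells and whose gene is known to respond early to serum, gave different values on its 2 tested probe sets. The probe set 1426642_at, which represents the gene here, read 49962 and 51747 in starved and 53187 and 49397 in stimulated wild-type cells, and 45282 and 58994 in starved and 41731 and 46048 in stimulated knockout cells. The groups lay close together, with a knockout difference of 0.024 ± 0.12, adjusted p = 0.891, in starved and -0.23 ± 0.12, adjusted p = 0.153, in stimulated cells. Fn1 gained a stimulated call without knockout starved set 1 (-0.23) or knockout starved set 2 (-0.23). With quantile normalization the differences were -0.39 and -0.53, both called lower. The probe set 1437218_at read 6198 and 5809 in starved and 9764 and 8597 in stimulated wild-type cells, and 2362 and 2274 in starved and 13682 and 12872 in stimulated knockout cells. Its starved knockout arrays were the lowest and its stimulated knockout arrays the highest of the 8, and no groups overlapped.

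On 1437218_at, Fn1 rose with serum by 0.61 ± 0.11, adjusted p = 0.0141, in wild-type and by 2.51 ± 0.11, adjusted p = 3.46e-07, in knockout cells, or 1.53-fold and 5.69-fold. The response was greater in knockout cells by 1.90 ± 0.16, adjusted p = 0.000546, and this was the single probe set of the 73 that passed the test of the interaction. The wild-type rise was no longer called without starved wild-type array 1 (adjusted p = 0.0593), without starved wild-type array 2 (adjusted p = 0.106) or without stimulated wild-type array 1 (adjusted p = 0.125). Knockout cells were lower, at -1.37 ± 0.11, adjusted p = 8.25e-06, when starved and higher by 0.53 ± 0.11, adjusted p = 0.00323, after serum. The sources used here do not place the probes of either set along the Fn1 transcript. This probe set was described because it passed the test, after its values were seen.

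**Figure D4:**
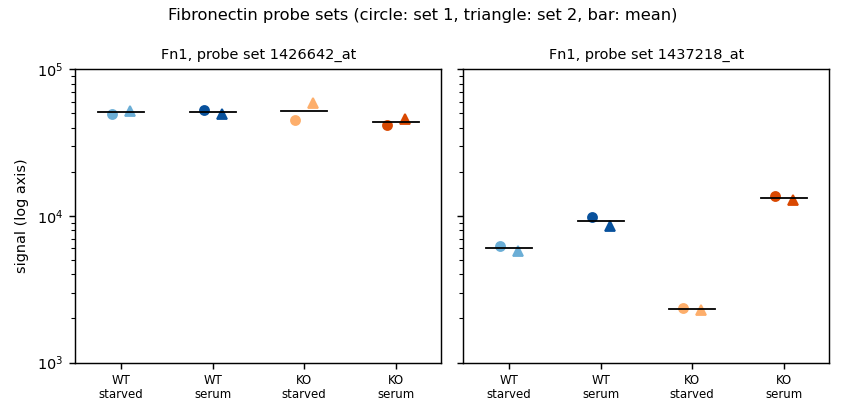
Signal per array (vertical axis, log scale, the authors' scaled units) of both tested Fn1 probe sets in wild-type (WT) and knockout (KO) cells, with the arithmetic mean of each group as a bar. On 1426642_at all arrays lie between 41731 and 58994, and on 1437218_at the starved knockout arrays lie at 2362 and 2274 and the stimulated ones at 13682 and 12872.

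For 25 genes with more than 1 tested probe set, the sets of a gene mostly gave the same call. All of a gene's sets shared one call for 19 of 25 genes between starved lines and for 23 of 25 between stimulated lines, and no gene had calls in opposite directions within a comparison. The genes whose sets differed between starved lines were Col1a1, Col4a5, Col5a1, Fn1, Sparc and Thbs2. At the level of probe sets, 46 of 73 were higher and 10 lower in starved knockout cells, and 44 were higher and 15 lower in stimulated cells. Over all tested probe sets 22.8% were higher and 24.8% lower in starved cells, and 22.7% and 27.5% in stimulated cells. With serum, Fn1 1437218_at was the single probe set called in wild-type cells, and in knockout cells 1 rose and 6 fell, the added ones belonging to Lamb1, Col4a1 and Vcan.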

How the data were processed

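Total RNA from the 8 samples was labelled with biotin and run on 1 array each. Per the submitters' processing notes, the deposited values are MAS5 signals, an intensity per probe set on a linear scale that the authors brought to one mean per array. MAS5 lowers each signal by mismatch probes, so dim values are noisy, and no detection calls were used here. A probe set was named by the platform's annotation table. Of 22690 probe sets, 14947 (66.1% of the non-control ones) reached the 40th percentile of their array on 2 or more arrays and were tested on log2 of intensity plus 16. A limma 3.58.1 model in R 4.3.3 held 4 group means over all 8 arrays, with eBayes following the trend of variance with mean. Tests were two-sided with Benjamini-Hochberg adjustment, and the fit had 4 residual and 6.07 prior degrees of freedom. Values after ± are standard errors. The procedure was also run on simulated arrays with independent noise, and that run does not bear on the calls made here. An exact permutation test of 2 arrays against 2 cannot give a p under 0.333, and the number of arrays limits the precision. Values on every array were given by a rule: up to 8 genes higher and 8 lower with the largest starved knockout difference, up to 6 of smallest p in each serum comparison and the interaction, and Col1a1, Col1a2, Col3a1, Fn1, Sparc, Dcn and Thbs1. Of the collagen processing genes, the 4 of smallest p were named with values. The genes and lists were chosen with earlier results of these data known. Alternatives varied the scaling, added constant, filter, variance model, arrays fitted, set number as a block and choice of probe set.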

Additional observations from a re-analysis of the deposited data

Results flagged for a closer look

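The Fn1 probe set 1437218_at responded differently to serum in the 2 lines by the test of the interaction: its rise was greater by 1.90 on the log2 scale in knockout than in wild-type cells, with an adjusted p of 0.000546 by limma. It stayed between 1.80 and 2.02 and was called under each of the 18 alternatives that gave it a value. The other tested Fn1 probe set, 1426642_at, had an interaction of -0.25 with an adjusted p of 0.479 and was called under none of 19 alternatives.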

How the results depend on the processing

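The counts of genes called between the lines stayed within 1.5 times under every alternative run, at 26 to 32 in starved and 28 to 35 in stimulated cells, and 24 to 31 and 26 to 34 when 1 array was left out. The cause was not tested for any shift given here, beyond fewer genes or arrays entering a fit. Genes called with serum in wild-type cells went from 0 to 1 with quantile normalization, and lay between 0 and 1 with 1 array left out (1, Svep1, without starved wild-type set 1). In knockout cells the 3 calls became 0 with median centring, without the filter and without the variance trend, 5 with the larger added constant, 6 without letter-suffixed probe sets, and 0 to 7 with 1 array left out (7 without starved knockout set 1). With the set number as a replicate block, shared by both lines, they were 5. The deviations of same-numbered sets correlated at 0.214 between the wild-type groups, 0.097 between the knockout groups and -0.034 to 0.0056 otherwise. The main fit did not pair samples by set number. A block within each line was not fitted, although Col1a2 and Nid1 differed between the wild-type sets in both serum states. The interaction gave 0 to 1 calls with 1 array left out (1, Col18a1, without starved knockout set 1). With quantile normalization Col1a1 turned to -0.12 in starved and -0.174 in stimulated cells, and Fn1 to -0.39 in starved cells. Medians between starved lines became, with the 60th percentile filter, 1.32 (fibrillar), 0.697 (proteoglycan) and 0.498 (elastic); with the larger constant, 1.39 (proteoglycan) and 0.828 (elastic); without the filter, 0.762 (elastic); and 0.876 to 1.29 (elastic) with 1 array left out. Between stimulated lines they became, with the 60th percentile filter, 1.16 (fibrillar), 0.965 (proteoglycan) and 0.346 (elastic); with the larger constant, 1.26 (proteoglycan) and 0.483 (elastic); for elastic genes also 0.81 with quantile normalization, 0.811 with median centring, 0.242 without the filter and 0.406 to 0.891 with 1 array left out. The wild-type serum median of network collagens became 0.0409 with median centring, 0.0392 without the filter, -0.0296 with the 60th percentile filter, 0.0752 without letter-suffixed sets and -0.114 to 0.0406 with 1 array left out. In knockout cells the serum median with median centring was -0.0804 (glycoproteins), -0.0857 (proteoglycans) and -0.167 (elastic); for elastic genes it was -0.172 with the 60th percentile filter and -0.372 to -0.174, and for proteoglycans -0.343 to -0.121, with 1 array left out. No detection calls limit what can be said of dim signals.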
